A study of Homo sapiens with 5 samples.

Results

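Interferon-stimulated genes are the genes that cells switch on when an interferon binds its receptor, and the 42 taken here are the antiviral effectors, RNA sensors, ubiquitin-like modifiers and interferon regulatory factors that make up the core of the type I response. They were read from every probe whose annotated symbol is one of the 42 names. A probe was found for 41 of them, 59 probes in all among the 28264 of the array, and 16 members had 2 or 3 probes. STAT2 was not analysed here. The arrays held RNA of MHCC97H cells, a hepatocellular carcinoma line of high metastatic potential, which stably carried a mutant of ACOT12 (n = 1), ACOT12 (n = 2) or an empty vector (n = 2). ACOT12 is a cytosolic thioesterase that splits acetyl-CoA into acetate and coenzyme A, and the series asks which genes lie downstream of it. All 3 kinds of cell had been selected in puromycin for 1 week. The residue changed in the mutant, the vector's promoter, and whether each line was a pool or a clone are not given in the labels.

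Type I interferons act through a receptor pair and the kinases JAK1 and TYK2. The signal ends in a transcription factor complex that contains IRF9 and binds the interferon-stimulated response element (ISRE) in promoters of such genes. Hepatocytes mount this response against viruses, and many carcinoma lines keep a low level of it without added interferon.

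The response element is what many of these promoters share, so its letters are shown for 6 members that recur in the comparisons below. The search used RefSeq windows of GRCh38.p14 that run from 250 bases before to 50 bases after each annotated gene start. The letters searched were GAAA, any pair of bases and GAAA again, or TTTC, any pair of bases and TTTC where the match lies on the other strand, and overlapping matches were kept. A window was found for 34 of the 42 members, and 25 of the 34 (73.5%) held the letters in at least one of their windows. Of all 27305 genes with a window, 4.38% held them. Each 60-base stretch below lies upstream of the start and runs 5′ to 3′ on the gene's strand, with the matching letters in capitals.
ISG15 (chr1:1013365-1013424, plus strand): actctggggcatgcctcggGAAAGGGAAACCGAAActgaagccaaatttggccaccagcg
IFI6 (chr1:27672251-27672310, minus strand): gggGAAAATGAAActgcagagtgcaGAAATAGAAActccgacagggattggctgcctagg
IFI44L (chr1:78620350-78620409, plus strand): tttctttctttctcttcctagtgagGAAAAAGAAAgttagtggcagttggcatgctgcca
IFIT1 (chr10:89392495-89392554, plus strand): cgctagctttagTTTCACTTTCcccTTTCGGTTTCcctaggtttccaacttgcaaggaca
IFITM3 (chr11:320861-320920, minus strand): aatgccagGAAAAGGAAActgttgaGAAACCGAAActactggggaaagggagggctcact
EPSTI1 (chr13:42992257-42992316, minus strand): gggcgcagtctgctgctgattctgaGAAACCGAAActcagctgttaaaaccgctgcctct
In ISG15 the matches overlap and start 113 and 107 bases before the gene start, and in IFIT1 they start 116 and 103 bases before it. The windows of XAF1, IRF9 and IRF1 held no match, which says only that these letters are not in those stretches.

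Array medians were 616 intensity units for the mutant, 816 and 825 for ACOT12 and 805 and 699.9 for empty vector, while array means lay between 6804 and 6975. The 10th percentile, used here as the mark under which a reading is called near the floor, was 48.4 for the mutant, 74 and 80.8 for ACOT12 and 50 and 31.5 for empty vector. The dim end of the ACOT12 arrays therefore read higher than that of the empty vector arrays. ACOT12 itself read 4029.6 on the mutant array, 4733 and 4859 on the ACOT12 arrays and 59.2 and 18 on the empty vector arrays, as the labels say. Of 12 markers of liver epithelial cells 10 had a probe, and none of these was near the floor on any array. Among 15 immune markers with a probe, LYZ was near the floor on all 5 arrays, PTPRC on the mutant array and CD3E on the second empty vector array. Their summed intensity was 23921 for the mutant, 26752 and 31312 for ACOT12 and 27369.9 and 25041 for empty vector. The 9 fibroblast markers summed to 5514 for the mutant, 9597 and 9156 for ACOT12 and 9203 and 6872 for empty vector. Of these, POSTN was near the floor on all 5 arrays and COL3A1 on all but the mutant array. The 7 endothelial markers summed to 3865 for the mutant, 5646 and 6581 for ACOT12 and 5668 and 5026 for empty vector. CLDN5 among them was near the floor on the first empty vector array. The 10 liver markers summed to 146464 for the mutant, 136383 and 167446 for ACOT12 and 147430 and 138554 for empty vector. The part of other cells in the results below was not tested. Differences are on the log2(intensity + 1) scale with limma's moderated SE, and a gene was called at a Benjamini-Hochberg adjusted p under 0.05 over the 15053 genes tested, each by its brightest probe. Of the members, 35 were bright enough to be tested.

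**Figure D1:**
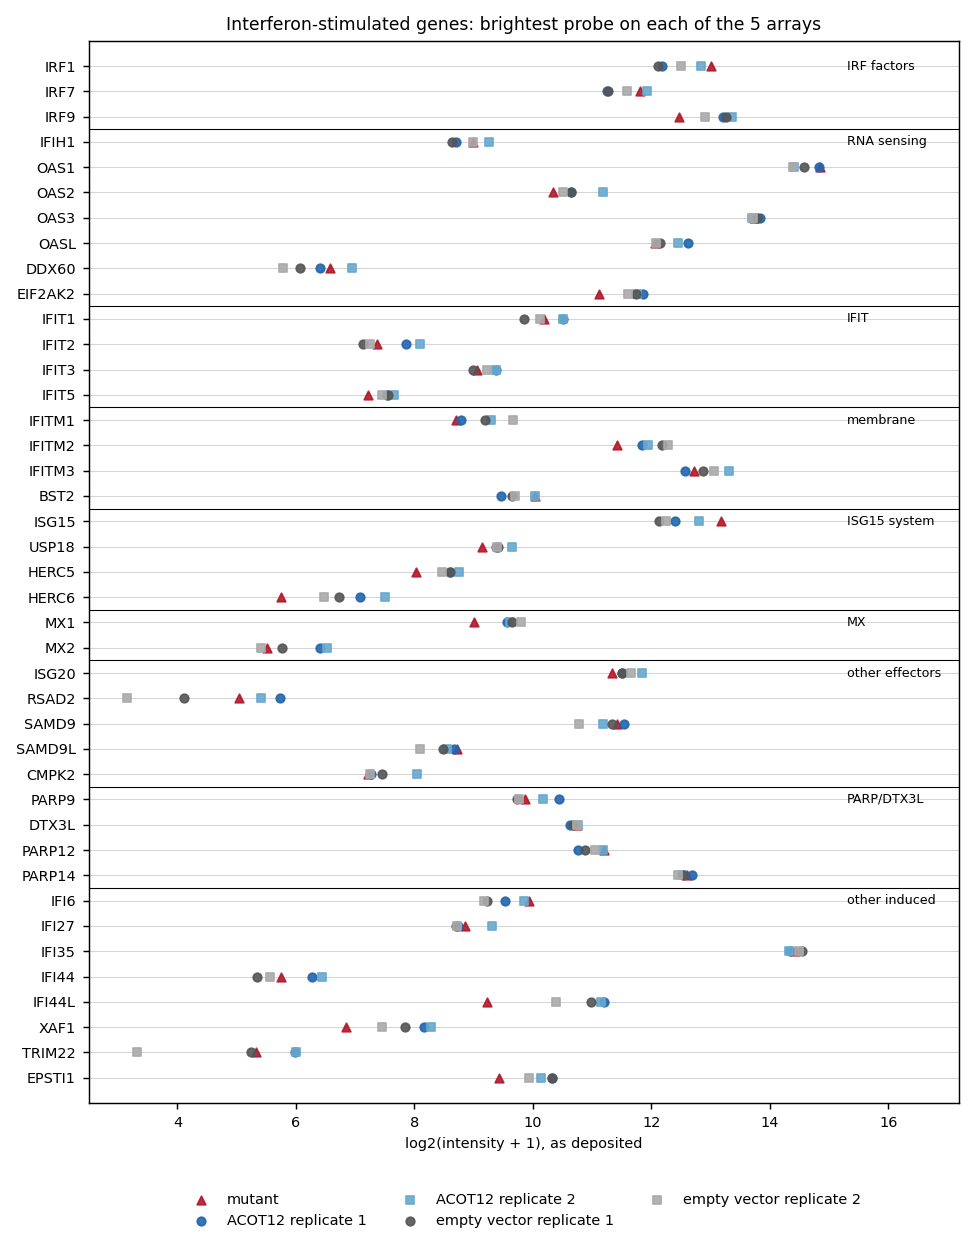
Log2(intensity + 1) of the brightest probe of each of the 41 members (rows, grouped by role) on the mutant array, the 2 ACOT12 arrays and the 2 empty vector arrays (points, 1 per array; log2 axis, as deposited). OAS1 and IFI35 sit at the bright end and RSAD2 and TRIM22 at the dim end. IFI44L and XAF1 have the mutant array apart on the low side and ISG15 has it on the high side. Levels of different genes come from different probes and are not to be ranked against each other.

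The members covered most of the brightness range of the array. OAS1, a synthetase that makes the RNase L activator on sensing double-stranded RNA, read 29337 on the mutant array, 29222 and 21631 on the ACOT12 arrays and 24563 and 21546 on the empty vector arrays. IFI35, an interferon-induced leucine zipper protein, lay between 20511 and 23969.8 on all arrays. All 10 readings stood between percentiles 93.1 and 95.1 of all probes of their array. At the other end, RSAD2, the radical-SAM enzyme viperin that makes a chain-terminating nucleotide, read 32 on the mutant array, 52.4 and 41.3 on the ACOT12 arrays and 16.3 and 7.88 on the empty vector arrays. All 5 of these readings lay near the floor. TRIM22, a ubiquitin ligase of the tripartite motif family, was near the floor on all 5 arrays too. With the GTPase MX2, the helicase-like DDX60, the ubiquitin ligase relative HERC6 and IFI44, they are the 6 members too dim to be tested. For these 6, both ACOT12 arrays read above both empty vector arrays, as did the 10th percentiles of the arrays, and the part of that offset in their readings was not tested. Among the 15053 genes tested, which are brighter, both ACOT12 arrays lay above for 20.2%. Of the dimmest 3764 of those genes, 87.4% had a higher mean with ACOT12. As deposited the differences of the 6 dim members between ACOT12 and empty vector ran from 0.69 for HERC6 to 1.94 for RSAD2. After quantile normalization they ran from −0.19 for RSAD2 to 0.20 for HERC6.

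Replicates of a group differed among the members by amounts as large as many of the differences between ACOT12 and empty vector. Between the ACOT12 arrays the median absolute gap of the 35 members was 0.23 on the log2 scale, against 0.20 for all genes tested. Between the empty vector arrays it was 0.14 for the members and 0.15 for all genes. After quantile normalization the members' gap was 0.23 between the ACOT12 arrays and 0.21 between the empty vector arrays. For all genes it was then 0.21 and 0.15. ACOT12 replicate 2 read higher than replicate 1 for 23 of 35 members (65.7%) and for 57.3% of all genes. The second ACOT12 array was the highest of the 5 arrays for 16 of 35 members, where it was so for 31.9% of all genes. After quantile normalization it was highest for 9 of 35 members and 20.6% of all genes. The gap was over 0.5 for 9 members (25.7%) between the ACOT12 arrays, against 11.4% of all genes, and for 2 (5.71%) between the empty vector arrays, against 13.7%.

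In bulk RNA, fewer cells of a type and less RNA per cell cannot be told apart. The mutant against empty vector gave a mixed picture in which members stood apart in both directions. ISG15, the ubiquitin-like modifier that is conjugated to viral and host proteins, read 9246 on the mutant array and 4465 and 4840.4 on the empty vector arrays. IFI6, a small protein of the endoplasmic reticulum and mitochondria, read 979 on the mutant array and 595 and 575 with empty vector. The mutant array lay above both empty vector arrays for both genes, by 0.99 ± 0.23 log2 for ISG15 (limma, adjusted p = 0.101) and by 0.74 ± 0.21 for IFI6 (adjusted p = 0.136). The other probe of IFI6 did not share this, with 576 on the mutant array and 656 and 653 with empty vector.

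Other members read lower on the mutant array. IFI44L, an interferon-induced relative of the microtubule-associated IFI44, read 599.9 on the mutant array and 2009 and 1344 on the empty vector arrays. The difference was −1.45 ± 0.27 (limma, adjusted p = 0.0871), and the second IFI44L probe, at 77.6 on the mutant array and 169 and 95.7 with empty vector, gave −0.71. XAF1, a promoter of apoptosis that antagonises XIAP, read 114 on the mutant array and 228 and 173 with empty vector (−0.79 ± 0.23, adjusted p = 0.140), while its second probe, near the floor on all 5 arrays, gave 0.71. MX1, a dynamin-like GTPase that traps viral nucleocapsids, read 510.4 on the mutant array and 805 and 887 with empty vector (−0.73 ± 0.19, adjusted p = 0.114). EIF2AK2, the kinase PKR that stops translation on sensing double-stranded RNA, read 2218 on the mutant array and 3421 and 3129.7 with empty vector (−0.56 ± 0.19, adjusted p = 0.175). For all 4 genes the mutant array lay below both empty vector arrays.

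No member passed limma's test in this comparison, where 0.0332% of all genes passed as lower and 0% as higher. ACOT12 itself, at 6.90 ± 0.62 above empty vector, did not pass (limma, adjusted p = 0.0688), so a missing call does not show an absent difference. The mutant array lay above both empty vector arrays for 16 of 35 members and below both for 17, against 29.6% and 54.7% of all genes. At an unadjusted p under 0.05, 8 of 35 members (22.9%) were lower, against 17% of all genes, and 2 (5.71%) were higher, against 3.69%. The members' median difference was −0.05, beside −0.13 for all genes. Quantile normalization moved the median of all genes to 0.00 and that of the members to 0.14, with 21 of 35 members reading higher (50.3% of all genes) in place of 16 (36.8%). At an unadjusted p under 0.05 it left 3 members higher and 5 lower, against 8.32% and 11.8% of all genes, and still 0 members passed, against 0.00664% of all genes called higher and 0.0465% lower. Under that scaling ISG15 (1.02) and IFI6 (0.96) stood as far from empty vector as before or further, and IFI44L (−1.16), XAF1 (−0.46) and MX1 (−0.39) stood nearer to it. Without empty vector replicate 2 the differences were −1.74 for IFI44L, 1.05 for ISG15 and −0.99 for XAF1. That fit left a single array in each of the groups compared.

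The interferon regulatory factors did not read alike on the mutant array. IRF1, an activator induced early by interferon gamma, read 8254 on the mutant array and 4432 and 5806 with empty vector, or 0.70 ± 0.32 (limma, adjusted p = 0.292). Its second probe gave 0.42. IRF7, the factor that amplifies interferon alpha production, read 3599.5 on the mutant array and 2472 and 3084 with empty vector (0.38 ± 0.32, adjusted p = 0.554). For IRF9, a DNA-binding subunit of the complex that binds the response element, the brighter probe read 5669.6 on the mutant array and 9765 and 7643 with empty vector (−0.61 ± 0.23, adjusted p = 0.206). The dimmer IRF9 probe read 2690.1 on the mutant array and 2054 and 2319 with empty vector, and so stood the other way (0.30), which leaves the direction of IRF9 unsettled.

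The interferon-induced transmembrane proteins, which block fusion of enveloped viruses, did not pass in this comparison. IFITM2 read 2738 on the mutant array and 4623 and 4974 on the empty vector arrays (−0.81 ± 0.19, limma adjusted p = 0.0998). IFITM1 read 414 on the mutant array and 584 and 807 with empty vector (−0.73 ± 0.30, adjusted p = 0.249), and IFITM3 read 6766 on the mutant array and 7490.3 and 8556 with empty vector (−0.24 ± 0.32, adjusted p = 0.717). The mutant array lay below both empty vector arrays for each of the 3, as it did for 54.7% of all genes, and IFITM3 turned to 0.04 with array medians centred. These genes are close paralogs, so their probes may share signal. BST2, the membrane tether tetherin that holds budding virions, read 1050.1 on the mutant array and 804 and 832 with empty vector, on the other side.

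**Figure D2:**
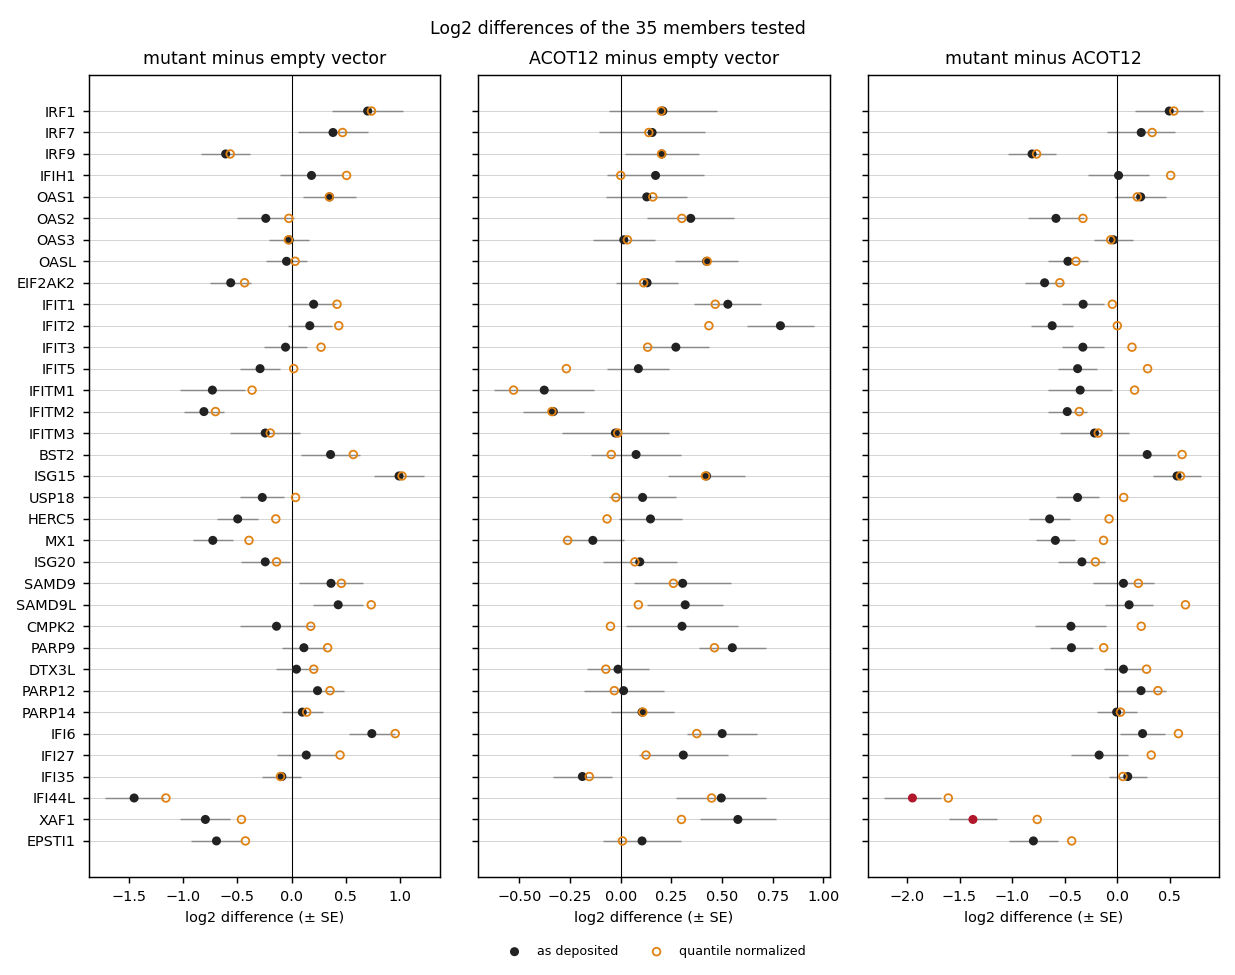
Log2 differences of the 35 members tested (rows) for the mutant minus empty vector, ACOT12 minus empty vector and the mutant minus ACOT12 (panels; axes differ in range). Filled points are values as deposited with limma's SE as bars, red where the adjusted p was under 0.05, and open points are values after quantile normalization. The red points are IFI44L and XAF1 in the last panel, and in the middle panel most points lie at or right of 0.

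ACOT12 against empty vector asks which of these genes differ when the unmutated transgene is carried, and most differences were small and positive. IFIT2, which binds viral RNA and has the smallest p of the members here, read 232 and 272 on the ACOT12 arrays and 139 and 152 on the empty vector arrays. The difference was 0.79 ± 0.16 as deposited (limma, adjusted p = 0.994) and 0.43 after quantile normalization. IFIT1, which binds RNA that lacks a cap methyl group, read 1457 and 1461 with ACOT12 and 923 and 1108 with empty vector (0.53 ± 0.16, adjusted p = 0.994). Its second probe read 895 and 791 with ACOT12 and 743 and 553 with empty vector, and neither probe's groups overlapped. IFIT3, the scaffold of the IFIT complex, read 666 and 663 with ACOT12 and 506 and 598 with empty vector. IFIT5, at 185 and 200.03 with ACOT12 and 188 and 175 with empty vector, had overlapping groups. Of these 4, IFIT5 turned from 0.09 to −0.27 after quantile normalization.

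Other members whose ACOT12 arrays lay above both empty vector arrays came from several roles. PARP9, a macrodomain protein that works with the ubiquitin ligase DTX3L, read 1386 and 1155 with ACOT12 and 854 and 874 with empty vector (0.55 ± 0.16, limma adjusted p = 0.994). Its dimmer probe read 375 and 558 with ACOT12 and 375 and 419 with empty vector and did not separate the groups, and DTX3L itself differed by −0.01 ± 0.15. XAF1 read 285 and 309.9 with ACOT12 and 228 and 173 with empty vector (0.58 ± 0.19). IFI6 read 742 and 924 with ACOT12 and 595 and 575 with empty vector (0.50 ± 0.17). OASL, an oligoadenylate synthetase-like protein without synthetase activity, read 6326 and 5583 with ACOT12 and 4525 and 4340.3 with empty vector (0.42 ± 0.16). ISG15 read 5423 and 7164 with ACOT12 and 4465 and 4840.4 with empty vector (0.42 ± 0.19). IFI44L read 2350.2 and 2285 with ACOT12 and 2009 and 1344 with empty vector (0.50 ± 0.22). Adjusted p was 0.994 for each of these 5, whose groups did not overlap. In the direction of lower readings stood IFITM2, at 3681 and 3939.5 with ACOT12 and 4623 and 4974 with empty vector (−0.33 ± 0.15, adjusted p = 0.994). MX1, at 757 and 779 with ACOT12 and 805 and 887 with empty vector (−0.14 ± 0.15), and IFI35 (−0.19 ± 0.15) also had both ACOT12 arrays below. IFITM1 had the lowest difference of the members, −0.38 ± 0.25 as deposited and −0.53 after quantile normalization. It read 443 and 630 with ACOT12 and 584 and 807 with empty vector, so its groups overlapped. IFITM3, at 6088 and 10145 with ACOT12 and 7490.3 and 8556 with empty vector, differed more between its ACOT12 replicates than between groups.

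No member passed in this comparison, nor did any gene of the table (limma, 0% called in either direction). ACOT12 itself, at 7.15 ± 0.50 above empty vector, was not called either (limma, adjusted p = 0.122). A missing call here therefore does not show that a difference is absent. At an unadjusted p under 0.05, 6 of 35 members (17.1%) were higher and 0 lower, against 2.55% and 0.452% of all genes. Of the 35 members 29 (82.9%) read higher with ACOT12, against 61.4% of all genes. Both ACOT12 arrays lay above both empty vector arrays for 14 members (40%), against 20.2% of all genes, and below them for 3 (8.57%), against 11.5%. The members' median was 0.15 beside 0.05 for all genes. After quantile normalization 22 members (62.9%) read higher against 48.2% of all genes, 10 (28.6%) had both ACOT12 arrays above against 12.1%, and the medians were 0.11 and −0.01. Both ACOT12 arrays then lay below for 4 members, against 16.2% of all genes. At an unadjusted p under 0.05, 3 members were then higher and 0 lower, against 0.817% and 1.38% of all genes, and 0 members passed, against 0.00664% of all genes in each direction. The list was chosen with an upward reading of interferon genes in these arrays already known, so these counts are no independent evidence of direction. Without ACOT12 replicate 2 the members' median was 0.08 beside 0.03 for all genes, and without ACOT12 replicate 1 it was 0.27 beside 0.09. Without empty vector replicate 2 it was 0.10 beside 0.02, and without empty vector replicate 1 it was 0.19 beside 0.08.

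The members are also set beside genes of like brightness, without a test. With the genes tested cut into 4 classes of equal size by brightness, the dimmest class held 10 members, with mean readings of 161 to 595 intensity units. Their median difference between ACOT12 and empty vector was 0.29, beside 0.26 for all genes of that class. For the 10 members in the next class it was 0.23 beside 0.08, and for the 10 in the third class 0.14 beside 0.00. The 5 members in the brightest class had a median of 0.02 beside −0.03. IFIT2 and XAF1 belong to the dimmest class and IFIT1, PARP9 and IFI6 to the second, whereas ISG15 and OASL belong to the third.

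**Figure D3:**
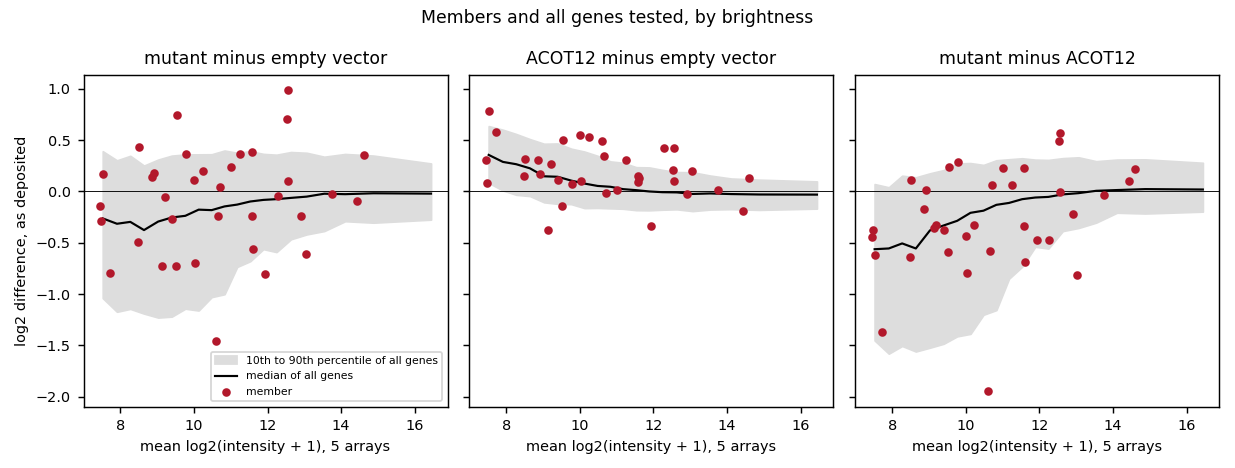
Log2 difference as deposited (vertical axis) against mean log2(intensity + 1) over the 5 arrays (horizontal axis) for the 35 members (red points), with the median (line) and the 10th to 90th percentile (grey) of all genes tested in 20 bins of brightness, for the 3 comparisons. The line rises at the dim end for ACOT12 minus empty vector and sinks there in both comparisons of the mutant. IFI44L lies under the grey band in both panels with the mutant.

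The mutant against ACOT12 compares the 2 transgenes directly, and it is the comparison in which members were called. IFI44L read 599.9 on the mutant array and 2350.2 and 2285 on the ACOT12 arrays, a difference of −1.95 ± 0.27 (limma, adjusted p = 0.0349). Its second probe read 77.6 on the mutant array and 185 and 191 with ACOT12 (−1.26). XAF1 read 114 on the mutant array and 285 and 309.9 on the ACOT12 arrays, or −1.37 ± 0.23 (adjusted p = 0.0349). In the 2 bins of brightness nearest to XAF1, the 10th percentile of all genes tested was −1.45 and −1.58, so XAF1 lay inside that spread. The second XAF1 probe, at 40.2 on the mutant array and 44.2 and 54.5 with ACOT12, was near the floor on all 5 arrays. Both genes fell on the mutant array, where the groups did not overlap. These 2 of 35 members (5.71%) stand beside 9.21% of all genes called lower and 0.0199% called higher, so the share of members called was below that of the table. The calls ended after quantile normalization, with adjusted p of 0.0507 for IFI44L (−1.61) and 0.0679 for XAF1 (−0.76), and without a filter on dim genes, with 0.123 for both. Both genes stayed called with array medians centred, with cyclic loess and with the offset at the 10th percentile. They also stayed called with the arrays' backgrounds equalized, an alternative chosen after seeing the data. Without either ACOT12 array no gene of the whole table was called. Such a fit leaves a single array in each of the groups compared, so it cannot decide about IFI44L or XAF1. With the mean of its probes XAF1 lay under the filter and was not tested.

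Further members read lower on the mutant array without passing. IRF9 read 5669.6 on the mutant array and 9419.5 and 10492 with ACOT12 on its brighter probe (−0.81 ± 0.23, limma adjusted p = 0.0828), but 2690.1 on the mutant array and 2026 and 2531 with ACOT12 on the dimmer one. EIF2AK2 read 2218 on the mutant array and 3703 and 3462 with ACOT12 (−0.69 ± 0.19, adjusted p = 0.0780). HERC5, the ligase that attaches ISG15, read 261 on the mutant array and 389 and 429 with ACOT12 (−0.64 ± 0.19, adjusted p = 0.101), and this became −0.08 after quantile normalization. OASL read 4293 on the mutant array and 6326 and 5583 with ACOT12 (−0.47 ± 0.19, adjusted p = 0.221) and kept −0.39 under that scaling. IFIT2, at 163 on the mutant array and 232 and 272 with ACOT12, was −0.62 ± 0.20 as deposited and 0.00 after it. ISG15 stood on the other side, at 9246 on the mutant array and 5423 and 7164 with ACOT12 (0.57 ± 0.23, adjusted p = 0.222; 0.60 after quantile normalization). IRF1 read 8254 on the mutant array and 4663 and 7358 with ACOT12 (0.49 ± 0.32, adjusted p = 0.469).

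At an unadjusted p under 0.05, 10 of 35 members (28.6%) were lower on the mutant array and 0 higher, against 21% and 1.56% of all genes. The mutant array lay below both ACOT12 arrays for 19 members and above both for 7, against 51.1% and 22.5% of all genes. As deposited 12 of 35 members read higher, against 34.3% of all genes. The members' median was −0.33 beside −0.13 for all genes. Quantile normalization turned both medians, to 0.05 and 0.04, and left 4 members lower and 3 higher at that p, against 13.3% and 8.75% of all genes, with 20 of 35 members reading higher (54.2% of all genes). It left 0 members called, against 0.0332% of all genes called lower and 0% higher. The values of the mutant rest on 1 array, which has no replicate and was assumed to vary like the others.

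Probes of the same gene offer a second reading within each array. In the comparison of ACOT12 with empty vector, 51 of the 59 probes (86.4%) read higher and 8 lower, against 72% of all probes higher. The probes of 14 of 16 members with several probes (87.5%) had the same sign, against 65.4% of the 5751 genes with several probes. After quantile normalization 39 probes (66.1%) read higher, against 47.8% of all, and 11 of 16 members (68.8%) had probes of the same sign, against 54.2% of the genes. As deposited the range between probes of a gene had a median of 0.17 for the members, against 0.22 for the genes with several probes. With the mutant against empty vector the probes shared a sign for 10 of 16 members, against 51.6% of the genes. The median range was 0.58, against 0.44 for the genes. With the mutant against ACOT12 the probes did so likewise for 10 of 16, against 63.7% of the genes. The median range there was 0.38, against 0.39 for the genes. OAS2, a second oligoadenylate synthetase, had 3 probes between 0.32 and 0.38 for ACOT12 against empty vector. OAS3, the member of that family that makes long oligoadenylates, had both probes between −0.08 and 0.09 in both comparisons with empty vector. PARP12, an antiviral ADP-ribosyltransferase, had both probes at 0.24 and 0.36 for the mutant against empty vector.

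EPSTI1, an epithelial gene first found as induced by stromal contact, had the widest disagreement. Its brightest probe read 690.3 on the mutant array, 1286 and 1120.3 on the ACOT12 arrays and 1274 and 978 with empty vector, so the mutant was lowest. A second probe read 564 on the mutant array, 163 and 181 with ACOT12 and 118 and 121 with empty vector, so there the mutant was highest. That probe was 2.23 ± 0.19 above empty vector and was the 1 member probe past the threshold when all 28264 probes were fitted on their own (limma, adjusted p = 0.0223). In that fit 1% of all probes were called higher and 0.0708% lower. The third, at 112 on the mutant array, 83.3 and 125 with ACOT12 and 66.4 and 65.3 with empty vector, gave 0.76. Which transcripts these probes read is not given in the sources used here. XAF1, CMPK2, a mitochondrial nucleotide kinase, PARP14, a macrodomain ADP-ribosyltransferase, and SAMD9L, a regulator of translation, each had a dim probe over 1 log2 unit from the brighter one for the mutant against empty vector. The dim probes were near the floor on 5 arrays for XAF1 and CMPK2, on 4 for PARP14 and on 3 for SAMD9L.

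**Figure D4:**
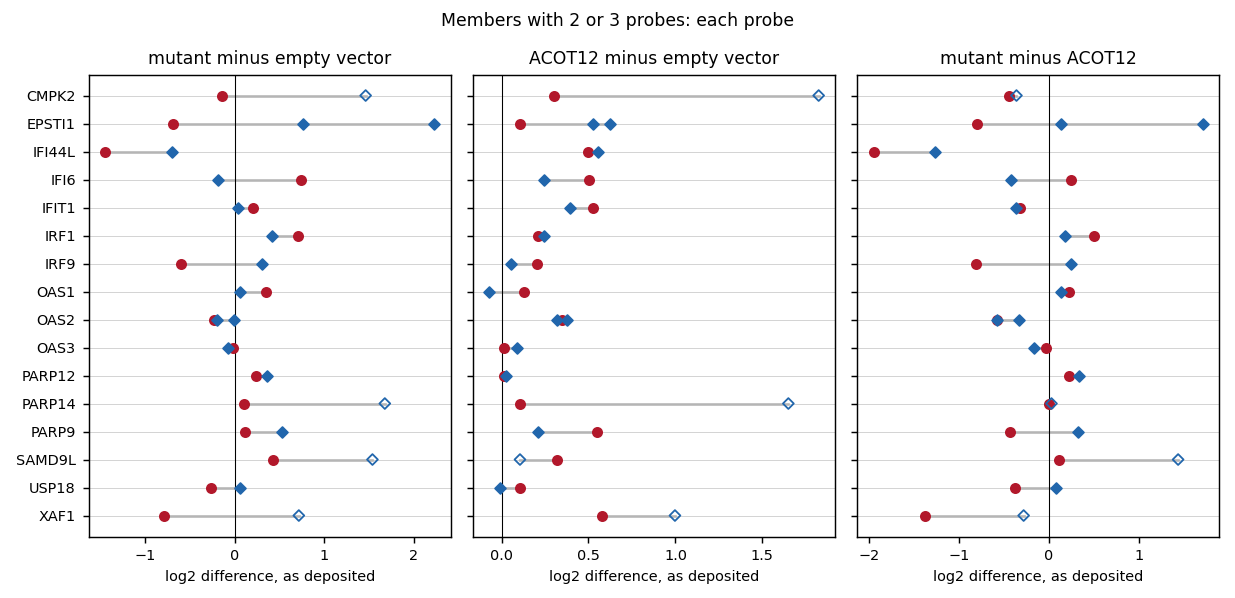
Log2 difference as deposited of every probe of the 16 members with 2 or 3 probes (rows) for the 3 comparisons (panels). Red circles are the brightest probe and blue diamonds the others, open where a reading was near the floor on at least 1 array, and grey lines join the probes of a gene. EPSTI1 spans −0.69 to 2.23 in the panel of the mutant minus empty vector, and both IFI44L probes lie left of 0 in both panels with the mutant.

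The remaining members had no difference past the threshold in any comparison. USP18, the protease that removes ISG15 and damps receptor signalling, read 563 on the mutant array, 665 and 806 with ACOT12 and 683 and 676 with empty vector. IFIH1, the RNA sensor MDA5, read 509 on the mutant array, 416 and 610.4 with ACOT12 and 395 and 507 with empty vector, with overlapping groups for ACOT12. ISG20, a 3′ to 5′ exonuclease, read 2588 on the mutant array, 2898 and 3683 with ACOT12 and 2899.7 and 3232 with empty vector. IFI27, a mitochondrial protein that marks interferon exposure in many tissues, was 459 on the mutant array, 425 and 631 with ACOT12 and 416 and 420.1 with empty vector, so 1 ACOT12 array stood apart. SAMD9, a restriction factor for poxviruses, read 2735 on the mutant array, 2958 and 2329.9 with ACOT12 and 2575 and 1752 with empty vector.

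Members with and without the response element letters in their windows are given side by side, without a test. For ACOT12 against empty vector the 22 tested members with the letters had a median of 0.12, with 18 higher and 4 lower, and the 7 without them a median of 0.21, with 6 higher and 1 lower. As deposited 61.4% of all genes read higher there. For the mutant against empty vector the medians were 0.01 and −0.09. For the mutant against ACOT12 they were −0.27 with the letters, with 7 higher and 15 lower, and 0.10 without them, with 4 higher and 3 lower. In that comparison 34.3% of all genes read higher as deposited. The median of all genes ran there from −0.51 in the dimmest class of brightness to 0.01 in the brightest. Members with and without the letters were not matched for brightness.

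Genes around the members in the pathway were read from lists by role. Of the 21 interferon genes listed 19 had a probe and 7 were tested, and all 7 read lower on the mutant array than with ACOT12, 2 of them past the threshold. As deposited 34.3% of all genes read higher in that comparison, and after quantile normalization 5 of the 7 read lower and 2 higher. IFNA14 read 234.7 on the mutant array, 764 and 788 with ACOT12 and 664 and 409 with empty vector (mutant minus ACOT12 −1.72 ± 0.31, limma adjusted p = 0.0349). IFNG, interferon gamma, read 174 on the mutant array, 465 and 458 with ACOT12 and 443 and 276 with empty vector (−1.40 ± 0.30, adjusted p = 0.0445). Interferon alpha genes are near-identical copies, so their probes cannot be taken as separate readings. Against empty vector none of the 7 passed in either comparison, and 4 were lower with the mutant at an unadjusted p under 0.05, against 17% of all genes.

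Among 11 sensors and adaptors tested, MYD88, the adaptor of Toll-like receptors, fell on the mutant array, at 6564 against 18569 and 18818 with ACOT12 (−1.51 ± 0.28, limma adjusted p = 0.0349), with 16726 and 11032 for empty vector. TICAM1, the adaptor of TLR3, read the other way, at 508 on the mutant array, 332 and 446 with ACOT12 and 265 and 250.01 with empty vector (mutant minus empty vector 0.98 ± 0.24, adjusted p = 0.106). Of 12 targets of interferon gamma, CIITA, the activator of HLA class II genes, and GBP4, a guanylate-binding protein, fell on the mutant array relative to ACOT12 (−1.92 ± 0.36, adjusted p = 0.0358, and −1.18 ± 0.23, adjusted p = 0.0383). MYD88, CIITA, GBP4, IFNA14 and IFNG belong to a table in which 9.21% of genes were called lower, and after quantile normalization 0 genes of these lists passed, with differences of −1.49 for MYD88, −1.34 for CIITA and −0.93 for GBP4. Of 9 receptor and kinase genes and of 7 brakes on the pathway none passed in any comparison. SOCS1, a brake on JAK kinases, read 386.3 on the mutant array, 505 and 484 with ACOT12 and 386.0 and 354 with empty vector. Of 28 other induced genes, 24 read higher and 4 lower with ACOT12 than with empty vector, against 61.4% of all genes higher, with a median of 0.14, and none passed. After quantile normalization 17 read higher and 11 lower, against 48.2% of all genes higher, with a median of 0.03.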

How the data were processed

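RNA of 5 samples was measured on 1 array each. Per the labels' protocols it was isolated with Trizol, amplified as amino allyl aRNA and labelled with Cy5. The deposited values are linear probe intensities, without detection flags. The sources used here do not name the scanner, background correction or scaling. Precision is limited by the small number of arrays. Since no label calls the replicates separate cultures, the p-values reflect the spread among these arrays alone, and it may be technical.

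Probes were named through the platform annotation, where 25893 had 1 symbol, 0 several and 2371 none, and all 25893 matched a current gene table by gene ID. Intensities below 0 were set to 0, an offset of 1 was added and log2 was taken without further scaling. Genes, each by its probe with the highest mean, were left out under the 25th percentile of all probes (7.34), which left 15053 of 19090. A limma 3.58.1 model (R 4.3.3, lmFit and eBayes, all 5 arrays, no covariates, residual df 2, prior df 3.96) gave all tests, which were two-sided. With 2 arrays against 2 an exact permutation p cannot fall under 0.333, and none was computed. The fit was tested on simulated data. Alternatives covered the scaling, the filter, the offset, the use of several probes, the variance model, a replicate block and each array left out in turn.

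The members, lists and tests were chosen with earlier results of these data known. By rule, the text names the 6 members with the smallest p per comparison, the transcription factors, the IFITM genes, any member called and up to 2 genes per pathway list. Readings on every array are not given for all of them. Other members and disagreeing probes were described after their values were seen.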

Additional observations from a re-analysis of the deposited data

How the results depend on the processing

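For ACOT12 minus empty vector, 0 members were called under every alternative run, and the members' median stayed above 0. Calls over all genes depended strongly on the setting, and the cause was not tested. For the mutant minus empty vector, where 5 genes were called as deposited, array medians centred gave 1446, quantile normalization 8, cyclic loess 187, no filter 150, the filter at the 50th percentile 141, the offset at the 10th percentile 8, the mean of all probes 11, eBayes with trend and robust 499 and every probe on its own 304. Leaving out an array gave 0 to 1986 (207 without empty vector replicate 1, 1986 without replicate 2, 0 without either ACOT12 array). For ACOT12 minus empty vector, with 0 as deposited, the counts were 45 with medians centred, 2 with quantile normalization, 2 with loess, 192 without a filter, 1 with the other offset, 8 with the mean of probes, 1 with trend and robust, 425 with every probe and 0 to 5 with an array left out. Equalizing the arrays' backgrounds, an alternative chosen after seeing the data, gave 1. For the mutant minus ACOT12, with 1389 as deposited (3 higher, 1386 lower), they were 2022 with medians centred (683 higher, 1339 lower), 5 with quantile normalization, 1 without a filter, 638 with the 50th percentile filter, 3 with every probe and 0 to 2343 with an array left out (0 without either ACOT12 array, 2343 without either empty vector array).

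Members called for the mutant minus empty vector were 0 as deposited, 4 with medians centred (IFI44L, IFI6, IRF1 and ISG15), 2 with trend and robust, 1 with every probe and 0 to 3 with an array left out. For the mutant minus ACOT12 they were 2 as deposited, 4 with medians centred (IFI44L and XAF1, with IRF1 and ISG15), 0 with quantile normalization, 0 without a filter, 1 with the 50th percentile filter, 1 with the mean of probes, 0 with every probe, 3 with trend and robust (IFI44L, XAF1 and IRF9) and 0 to 3 with an array left out. The 2 members called as deposited for the mutant minus ACOT12, IFI44L and XAF1, also passed with loess, with the other offset and with backgrounds equalized. The members' median for the mutant minus empty vector was 0.24 with medians centred, 0.14 with quantile normalization, 0.071 with loess, 0.012 with the 50th percentile filter and 0.062 with every probe, and −0.05 to −0.02 with an array left out. For the mutant minus ACOT12 it was 0.085, 0.054 and 0.025 with the 3 scalings in that order, −0.13 with the 50th percentile filter, −0.16 with the mean of probes and −0.38 to −0.11 with an array left out.

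Single values that changed sign were, for the mutant minus ACOT12, ACOT12 (0.16 with medians centred, 0.11 with loess), IFITM1 (0.0598 with medians centred, 0.16 with quantile normalization, 0.039 with loess), IFITM3 (0.20 with medians centred, −0.58 to 0.15 with an array left out), EPSTI1 (0.35 with the mean of probes) and IRF7 (−0.11 to 0.57 with an array left out). For the mutant minus empty vector it was IFITM3 (0.041 with medians centred). For ACOT12 minus empty vector, with an array left out, IFITM3 ran from −0.39 to 0.34, IRF1 from −0.12 to 0.54 and IRF7 from −0.19 to 0.49.

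The replicate numbers are shared by ACOT12 and empty vector, but no label says that they pair the arrays. Deviations of the first replicates correlated at 0.158 over 15053 genes, with 2 pairs. The replicate block gave 1635 genes and 3 members for the mutant minus empty vector (median 0.0029), 1 gene for ACOT12 minus empty vector, and 2485 genes and 3 members (IFI44L, XAF1 and EPSTI1, at an adjusted p of 0.027 for EPSTI1) for the mutant minus ACOT12, where IFITM3 turned to 0.016.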
